A study of Mus musculus with 6 samples.

Results

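The livers of wild-type (WT) mice were represented by 2 of the 6 arrays of the study, 1 of the Affymetrix mouse genome 430A design and 1 of the complementary 430B design. These arrays were taken by their genotype label alone, and the signals of their probe sets were ranked within each design. The 430A array carried 22690 probe sets, of which 20393 named a single gene and together stood for 12393 genes. The 430B array carried 22575 probe sets, of which 14674 named a single gene, for 9607 genes. The study also hybridised livers of transgenic mice of the remaining 2 of its 3 genotypes, and those arrays were not used here. The WT mice were non-transgenic males, 32 to 37 days old, of the hybrid B6SJL strain background. For 4 days their drinking water held doxycycline (25 µg/ml) and sucrose (2.5%), the regimen that all genotypes of the study received, so the livers were not those of untreated mice. Unlike the transgenic mice, the WT mice lacked the ApoErtTA transgene. The sources used here do not say whether the RNA came from a single animal or a pool, or whether both designs received the same extract.

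The liver is made mostly of hepatocytes, which secrete the bulk of the plasma proteins, package lipids into lipoproteins, make bile, store and release glucose, convert ammonia to urea and oxidise foreign compounds. Hepatocytes divide these tasks along the path of the blood, with urea and glucose synthesis near the portal vein and drug oxidation and glutamine synthesis near the central vein. Resident macrophages (Kupffer cells), sinusoidal endothelial cells, stellate cells and bile duct cells make up the remainder of the organ.

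The values were deposited signal intensities in arbitrary units, 1 per probe set. Each gene was given its brightest probe set. Probe sets of the _x_at kind, which may hybridise to related genes, were used only where a gene had no other. A signal depends on how strongly the probes bind as well as on how much transcript is present. Ranks and percentiles below are therefore of signal and do not order genes by transcript number. A percentile is the share of genes of the design with a lower signal. The top 10% held 1239 genes on 430A, down to a signal of 914, and 961 genes on 430B, down to 1017. The floor was set at the median signal of all probe sets of the array, 86.8 on 430A and 149 on 430B, and a gene at or below it was read as not distinguishable from dim probe sets. The floors are not the same level, since probe sets present on both designs read a median of 4.57 times higher on 430B. A reading above the floor or in the top 10% on 430B thus holds for that array alone. A gene below the floor on 430A and above it on 430B was held to unlike thresholds. With 1 array of each design there is no replicate, so no value has a biological error and no test was made.

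The tissue was labelled liver, and all 5 hepatocyte markers lay near the bright end of the 430A array. Alb, which codes for albumin, gave the brightest signal of all 12393 genes under this choice of probe sets, at 28285. The _x_at probe sets of Apoa1, which were set aside, read up to 31478. Apoe, the ligand that clears lipoprotein remnants, read 23484 at rank 5. Car3, a carbonic anhydrase abundant in male rodent liver, read 16337 at rank 27, and Cyp2e1, the ethanol-oxidising cytochrome P450, read 13906 at rank 40. Another 430A probe set of Car3 read 7835.5. On 430B its probe sets read 508, outside the top 10%, and 65.5, below the floor there. Saa1, an acute phase apolipoprotein, read 11241 at rank 60. Signal was concentrated in few genes: the 100 brightest held 23.0% of the summed signal of all 430A genes, and the top 10% held 67.0%. On 430B the corresponding shares were 20.1% and 52.3%. The curve fell more gently at its bright end on 430A, where the signal at rank 1 was 3.55 times that at rank 100, than on 430B, where it was 18.5 times.

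**Figure D1:**
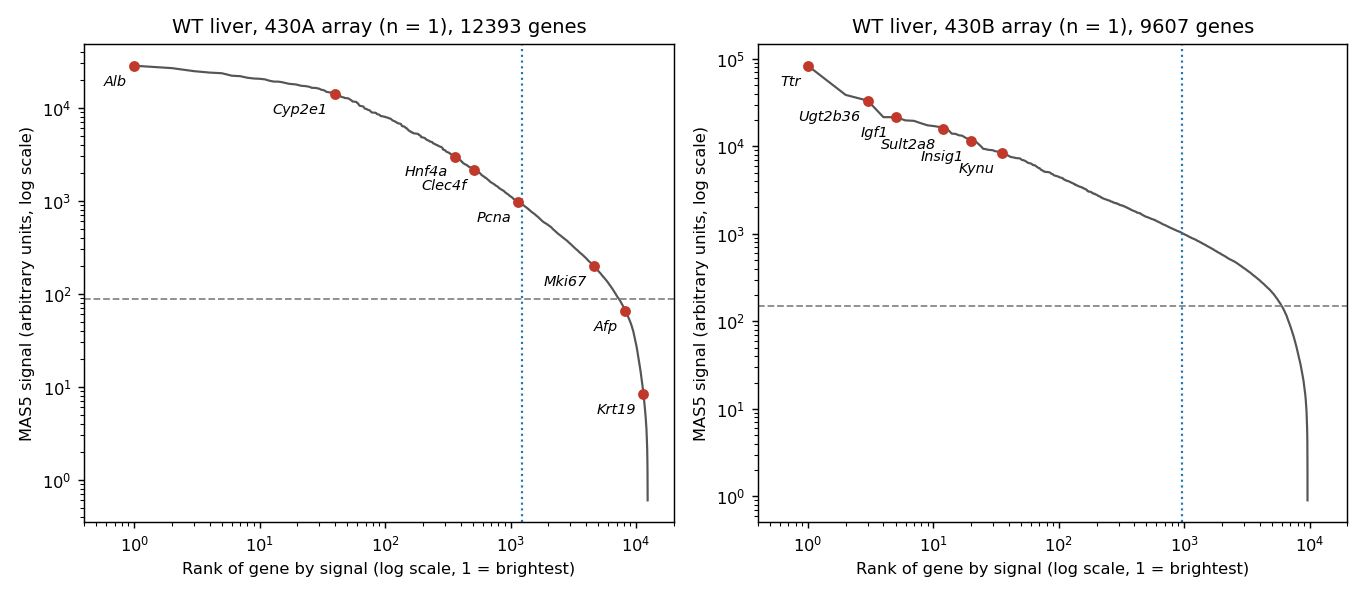
Signal of each gene (arbitrary units, log scale) against its rank (log scale, 1 is the brightest) on the WT 430A array, left, and the WT 430B array, right. The dashed line is the floor (86.8 and 149), the dotted line the end of the top 10%, and the red points mark named genes from Alb at 28285 down to Krt19 at 8.4 on 430A.

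Genes on lists for hepatocyte functions were frequent at the bright end of the 430A array. Of 486 genes on 19 such lists, 300 were in the top 10% of signal, a class that by its definition holds 10% of all genes. Their median lay at percentile 94.5. In all, 443 of the 486 were above the floor, beside 59.4% of all genes on the array. They supplied 71 of the 100 brightest genes. Of all 1239 genes in the top 10%, 782 stood on none of the lists used here. Of the 10 brightest, 9 belonged to lists of secreted proteins, and the other was Scd1, the desaturase that makes monounsaturated fatty acids, at 20457.5. Lists of secreted proteins held 18 of the 30 brightest and 33 of the 100 brightest genes. Lists for other cell types and tissues stood lower, counted without genes that also stood on a hepatocyte list. Of these 234 genes, 14 were in the top 10% and 100 above the floor, and their median lay at percentile 34.6.

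**Figure D2:**
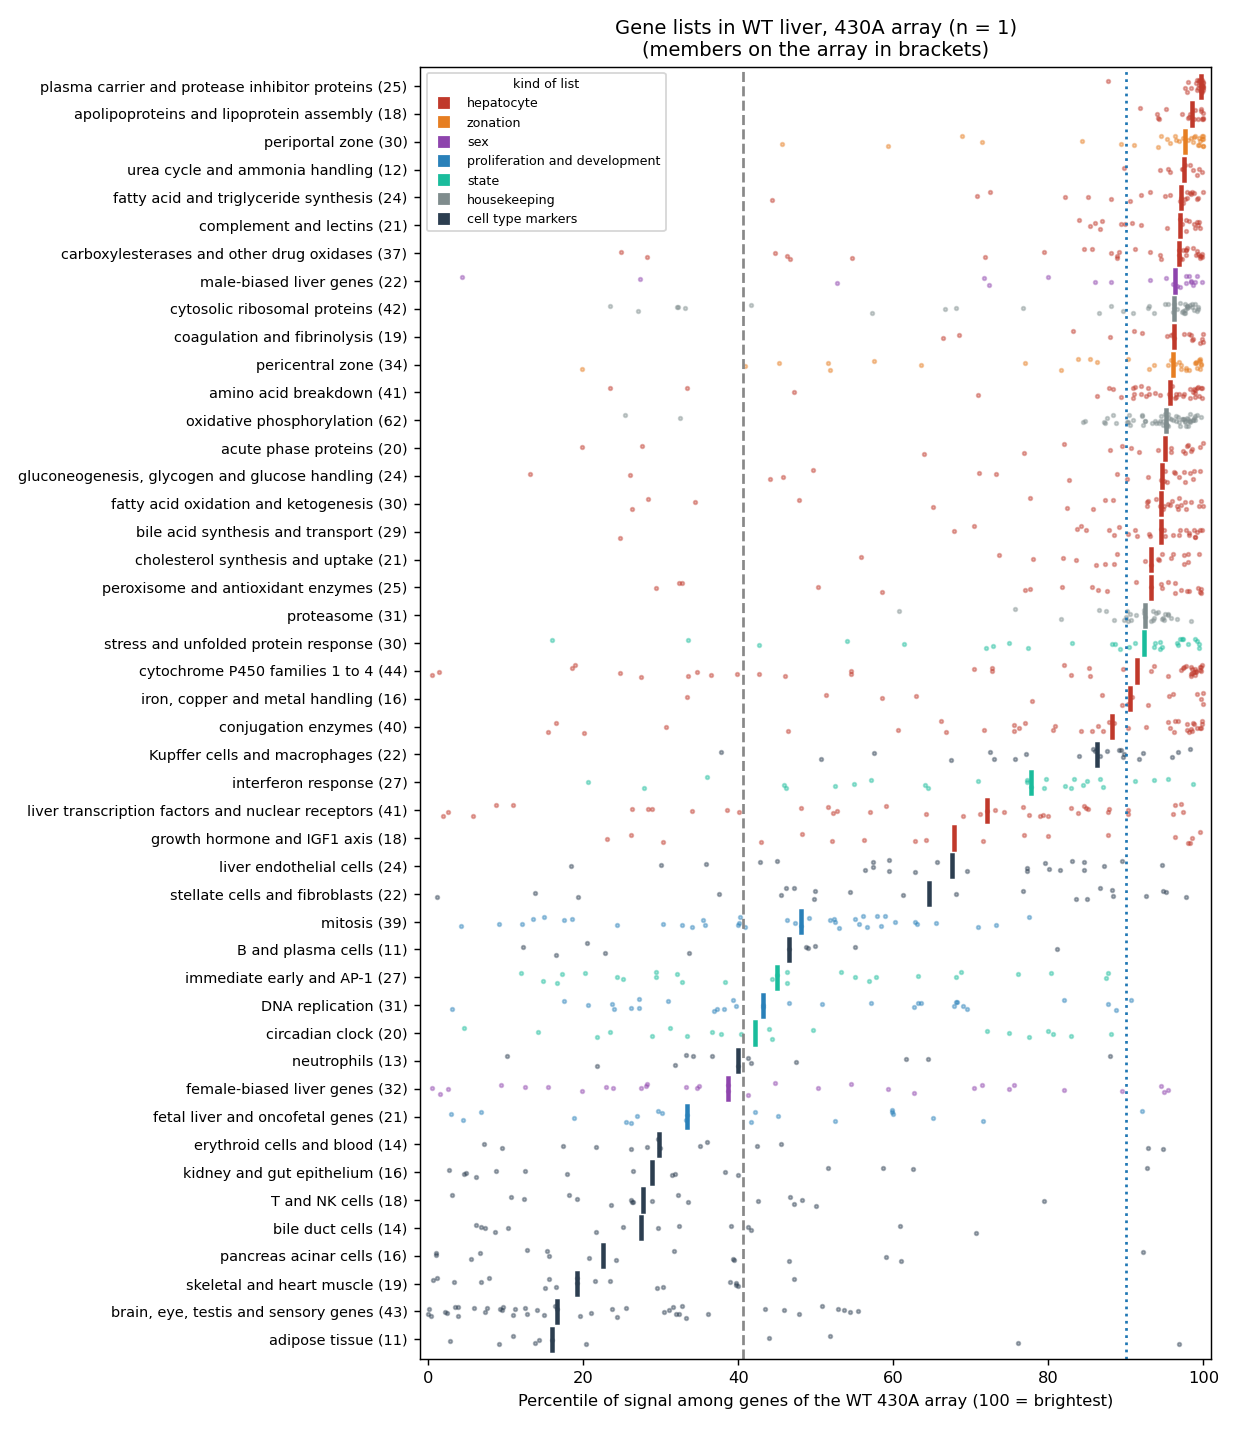
Percentile of signal on the WT 430A array (horizontal axis, 100 is the brightest) for the members of each gene list (points) with the list's median (bar), coloured by kind of list, with the floor dashed and the start of the top 10% dotted. Medians run from 99.7 for plasma carriers to 16.0 for adipose tissue.

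Plasma carrier proteins and protease inhibitors formed the brightest list. Of its 25 members on 430A, 24 were in the top 10% and all were above the floor, with a median percentile of 99.7. After Alb came Serpina1c, an alpha-1 antitrypsin that inhibits elastase, at 24721, and Hpx, the haem scavenger hemopexin, at 22091.5. Ahsg, the mineral-binding fetuin-A, read 21831. A further antitrypsin gene, Serpina1b, read 20989, through an _x_at probe set, a kind that can pick up several members of this near-identical family. Serpinc1, the thrombin inhibitor antithrombin, read 19089 and Ambp, the precursor of alpha-1-microglobulin and bikunin, 18119.9. Pzp, a broad protease inhibitor of the alpha-2-macroglobulin family, read 17860.3, and the retinol carrier Rbp4 read 16920.3. Ttr, which carries thyroxine and Rbp4, read 15984 at rank 30 on 430A and 83346 at rank 1 on 430B. The member outside the top 10% was Igfals, the acid-labile subunit that holds IGF1 in plasma, at 734.

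Apolipoproteins and proteins of lipoprotein assembly were all bright. All 18 members were in the top 10%, and the median percentile was 98.5. Apoa1, the main protein of high-density lipoprotein, read 26646 at rank 2 on the whole array. Apoe followed at rank 5, Apoa2 read 20610.1 at rank 9 and Apoc3, an inhibitor of triglyceride clearance, 16373.5 at rank 26. The lowest member was Pltp, the phospholipid transfer protein, at 1102.5.

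Coagulation factors were bright with a wider spread. Of 19 members, 15 were in the top 10%, all were above the floor, and the median percentile was 96.2. The genes of the 3 fibrinogen chains led: Fgb read 23858, Fgg 19489.6 and Fga 17309.9. Prothrombin, the product of F2, stood next with a signal of 12589 at rank 51. The dimmest were Habp2, a plasma serine protease, at 227, and F8, the factor VIII gene, at 249. Factor VIII is made chiefly by endothelial cells.

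Complement proteins and plasma lectins behaved similarly, with 14 of 21 in the top 10%, all above the floor and a median percentile of 97.0. The terminal component C9 read 10447, the protease Cfi, which inactivates C3b, 9717, and the mannose-binding lectin Mbl2 8410.4. C8g, a chain of the membrane attack complex, read 7825. The 3 chains of C1q, which macrophages make, were lower on the list: C1qb read 861, C1qc 668.5 and C1qa 549.

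Acute phase proteins are those whose synthesis by the liver shifts in inflammation. Of 20 members, 13 were in the top 10% and 18 above the floor. The haemoglobin scavenger Hp led at 20187 (rank 11), followed by Saa1 at 11241, Lrg1 at 5210 and the pentraxin Crp at 4771. Of the other serum amyloid genes, Saa2 read 2117 and Saa3 1088. The iron hormone gene Hamp read 867, while its paralogue Hamp2 was at 30.7, below the floor. Signals of near-identical copies such as Saa1 and Saa2, or Hamp and Hamp2, cannot be separated with certainty by hybridisation.

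The start sites of some of these genes are shown because Alb and its neighbour Afp belong to the same gene family, share a motif and yet stood far apart in signal. Afp codes for alpha-fetoprotein, the fetal counterpart of albumin, and read 65.7 at rank 8246, below the floor. The sequences are the 150 bases before the annotated start, 5′ to 3′ on the gene's strand, from RefSeq on the GRCm38.p6 build. Capitals mark GTTAAT or its reverse complement ATTAAC, the core bound by the hepatocyte factor HNF1. The genes were chosen because their windows hold this core, so its presence in them is no result. Besides secreted proteins they include Fabp1, the liver's fatty acid carrier. The windows are chr5:90460720-90460869 on the plus strand for Alb, chr12:103904951-103905100 on the minus strand for Serpina1c, chr3:83049864-83050013 on the minus strand for Fgb, chr3:83026003-83026152 on the plus strand for Fga, chr6:71199729-71199878 on the plus strand for Fabp1 and chr5:90490564-90490713 on the plus strand for Afp.
Alb: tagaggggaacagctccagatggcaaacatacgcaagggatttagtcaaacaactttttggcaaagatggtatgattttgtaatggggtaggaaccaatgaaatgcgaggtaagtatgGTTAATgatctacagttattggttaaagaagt
Serpina1c: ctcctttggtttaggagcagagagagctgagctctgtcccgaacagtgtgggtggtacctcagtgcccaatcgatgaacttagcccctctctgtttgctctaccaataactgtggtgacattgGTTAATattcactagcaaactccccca
Fgb: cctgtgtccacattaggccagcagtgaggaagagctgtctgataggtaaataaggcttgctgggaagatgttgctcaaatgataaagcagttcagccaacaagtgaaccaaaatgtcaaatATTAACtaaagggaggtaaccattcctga
Fga: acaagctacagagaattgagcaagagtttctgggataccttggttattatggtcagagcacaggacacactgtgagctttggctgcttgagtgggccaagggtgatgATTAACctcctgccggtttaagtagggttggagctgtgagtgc
Fabp1: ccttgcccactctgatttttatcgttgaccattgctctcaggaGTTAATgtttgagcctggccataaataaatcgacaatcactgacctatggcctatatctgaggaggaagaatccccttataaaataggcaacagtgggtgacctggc
Afp: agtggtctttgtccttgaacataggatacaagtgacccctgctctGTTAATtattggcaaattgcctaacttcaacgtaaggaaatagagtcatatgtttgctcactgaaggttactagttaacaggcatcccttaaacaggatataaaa
The first base of the match lay 32 bases before the start in Alb, 27 in Serpina1c, 29 in Fgb and 43 in Fga, and 107 and 105 bases before it in Fabp1 and Afp. A match of letters is a description and does not show that a factor binds there.

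Promoter windows from 250 bases before to 50 bases after the start were searched for short motifs on both strands, and several motifs were more frequent in the 100 brightest genes than in all genes. A gene entered where RefSeq gave it 1 such window, which held for 71 of the 100 brightest genes, 841 of the top 10%, 3205 of the 5034 genes at or below the floor and 7938 of all 12393. That is 64.1% of all genes, so the shares describe these genes and not the whole array. GTTAAT was found in 15.5% of the windows of the 100 brightest genes, 8.20% of the top 10%, 5.46% of genes at or below the floor and 4.99% of all. AGGTCA, the core of many nuclear receptor sites, was found in 35.2% of the 100 brightest, 17.6% of the top 10%, 12.9% of genes at or below the floor and 12.9% of all. In the same order, TTGCNNAA, a core of C/EBP sites, was found in 21.1%, 12.6%, 9.70% and 9.18%. TGTTTNC, a core of FOXA sites, was found in 25.4%, 18.0%, 17.0% and 16.0%, so that the top 10% and the dim genes lay close together. TATAAA was found in 21.1%, 13.1%, 14.6% and 10.7%, with a higher share in dim genes than in the top 10%. CCAAT was found in 42.3%, 42.0%, 37.3% and 38.6%. GGGCGG, the GC box, was found in 36.6%, 58.1%, 47.8% and 57.9%, so its share was low in the 100 brightest and, less so, in dim genes, but not in the top 10%. The windows of the 100 brightest genes had a mean GC content of 53.8% ± 9.69 (SD, n = 71 genes) and a median of 6 CpG, beside 59.1% ± 9.90 (SD, n = 7938 genes) and 18 CpG over all genes. Base composition alone changes how often each motif occurs, and its part in these shares was not tested.

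**Figure D3:**
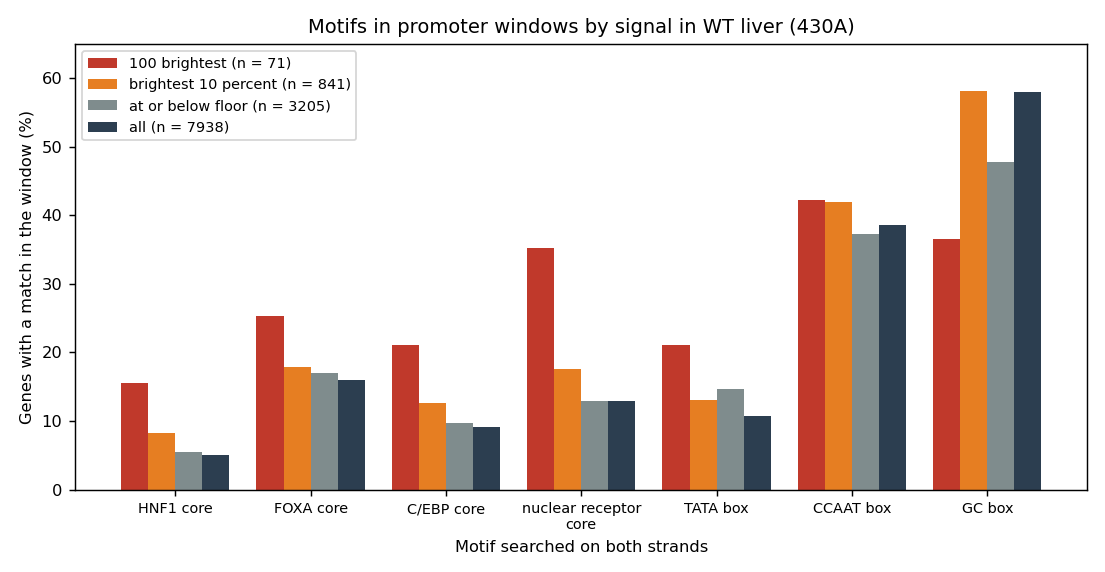
Share of genes (percent) with a match to each motif in the 300-base window around the start, for the 100 brightest genes of the WT 430A array (n = 71), the top 10% (n = 841), genes at or below the floor (n = 3205) and all genes (n = 7938). For the GTTAAT core the bars fall from 15.5% to 4.99%, and for the GC box the bar of the 100 brightest, 36.6%, is the lowest.

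Enzymes that handle drugs and other foreign compounds were often bright, with a wide spread among the P450s. Of 44 genes of cytochrome P450 families 1 to 4, which oxidise drugs, steroids and fatty acids, 22 were in the top 10%. Above the floor were 34, beside 59.4% of all genes, and the middle 50% of members ran from percentile 45.2 to 98.5. Cyp2f2, a periportal P450, read 17648 at rank 20. Cyp2e1 read 13906, Cyp3a11, a main drug-oxidising P450 of mouse liver, 13870.2, and Cyp2c70, which makes muricholic acids, 12224. Cyp1a1, which is induced by dioxin-like compounds, read 92.9, close to the floor, and its hepatic relative Cyp1a2 read 7265. Cyp2b10, the usual marker of activation of the receptor CAR, read 146. Over all 63 genes with a Cyp symbol, those of steroid and bile acid synthesis included, 25 were in the top 10%. At or below the floor were 19, beside 40.6% of all genes.

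Conjugation enzymes make compounds soluble for excretion. On 430A, 19 of 40 were in the top 10% and 36 above the floor, with a median percentile of 88.1. The glutathione transferase Gstp1 read 16771, the microsomal Mgst1 15591, the glycine methyltransferase Gnmt 14709 and Gstm1 11985. All 18 genes with a Gst symbol were above the floor and 11 were in the top 10%. Among 11 sulfotransferase genes on 430A the phenol sulfotransferase Sult1a1 stood alone in the top 10%, at 5091. Of the 11, 7 were at or below the floor, beside 40.6% of all genes. The third brightest gene of 430B was the glucuronosyltransferase Ugt2b36, at 33247, and Ugt2b35 read 12547 there. The sulfotransferase Sult2a8 read 15913 on 430B. Neither Ugt2b36, Ugt2b35 nor Sult2a8 had a probe set of its own on 430A.

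Of 37 carboxylesterases, dehydrogenases and other oxidases, 23 were in the top 10%, with a median percentile of 96.8. Car3 led the list, followed by the plasma esterase Ces1c at 15513, the alcohol dehydrogenase Adh1 at 13029 and the paraoxonase Pon1 at 11539. Car3 was an exception in its own family: of 16 genes with a Car symbol it was the member in the top 10%. In that family 9 were at or below the floor, beside 40.6% of all genes.

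Enzymes that clear nitrogen and amino acids were bright almost throughout. Of 12 genes of the urea cycle and ammonia handling, 11 were in the top 10% and all were above the floor. Cps1, which commits ammonia to the cycle, read 16142 at rank 29, the arginase Arg1 8923, the glutamate dehydrogenase Glud1 7973 and Otc, which makes citrulline, 5298. Nags, whose product activates Cps1, was the lowest at 892.5. Ass1, the argininosuccinate synthetase, had a probe set of its own on 430B alone, at 399.8. A 430A probe set annotated to Ass1 together with Gm5424, which names no single gene, read 17161. Of 41 genes of amino acid breakdown, 33 were in the top 10%. They were led by Hpd of tyrosine breakdown at 17956, the betaine-using methyltransferase Bhmt at 17105.5, Gnmt at 14709 and the homocysteine-producing Ahcy at 8882.

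Carbohydrate genes were led by enzymes of glucose output. Of 24 genes, 15 were in the top 10% and 22 above the floor. Fbp1, the fructose bisphosphatase of gluconeogenesis, read 11602, the glucose-releasing phosphatase G6pc 6025.5, the glycogen phosphorylase Pygl 5299 and the growth factor carrier Igfbp1 4584. Pck1, the cytosolic enzyme that starts gluconeogenesis from oxaloacetate, read 2753 through its brightest probe set and 32 through another. Its mitochondrial counterpart Pck2 read 46.7. The insulin receptor substrate Irs1 read 505, and Irs2 was at 16.2, below the floor.

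Genes of lipid synthesis and of lipid oxidation were both bright. Of 24 genes of fatty acid and triglyceride synthesis, 18 were in the top 10% and all were above the floor, with a median percentile of 97.1. Scd1 led, followed by Thrsp, a regulator of lipogenesis, at 8155, the elongase Elovl5 at 7679 and Acly, which supplies cytosolic acetyl-CoA, at 5898. Fasn, the fatty acid synthase, read 4506, and Agpat2, which makes phosphatidic acid, read 16699 at rank 11 on 430B. Of 30 genes of fatty acid oxidation and ketogenesis, 20 were in the top 10% and 27 above the floor. The fatty acid carrier Fabp1 read 18846, the peroxisomal thiolase Acaa1b 14585, the mitochondrial thiolase Acaa2 9699 and the medium-chain dehydrogenase Acadm 4729. The fasting-responsive hormone gene Fgf21 read 68.3, below the floor, and Pdk4, which blocks pyruvate oxidation in fasting, read 114.

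Of 21 genes of cholesterol synthesis and uptake, 12 were in the top 10% and all were above the floor. Hmgcs1, which makes HMG-CoA in the cytosol, read 10075, the sterol sensor partner Insig2 4108, the farnesyl diphosphate synthase Fdps 4095 and the desaturase Sc5d 3416. Insig1, the sterol-responsive relative of Insig2, read 11479.5 on 430B. Of 29 genes of bile acid synthesis and transport, 20 were in the top 10% and 28 above the floor. The sterol carrier Scp2 read 16317, the steroid dehydrogenase Akr1c6 11650.3, the bile acid ligase Slc27a5 7874 and the bile acid importer Slc10a1 6549. The canalicular bile salt pump Abcb11 read 6219. Cyp7a1, the rate-limiting enzyme of bile acid synthesis, read 739 at rank 1513, outside the top 10%.

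Of 25 peroxisomal and antioxidant genes, 14 were in the top 10% and 22 above the floor. The superoxide dismutase Sod1 read 14293 on 430A and 38658 at rank 2 on 430B, the urate oxidase Uox 12686, the glutathione peroxidase Gpx1 12631 and catalase, Cat, 8446. Of 16 genes of iron, copper and metal handling, 9 were in the top 10%. Hpx and Hp led, followed by the ferroxidase Cp at 13822 and the ferritin heavy chain Fth1 at 7969. The metallothioneins Mt1 and Mt2, which bind zinc and rise with glucocorticoids and metals, read 686 and 383. On 430B, Tmprss6, the protease that restrains hepcidin, read 10574.

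Transcription factors of the liver lay in the middle of the signal range. Of 41 factors and nuclear receptors, 6 were in the top 10% and 30 above the floor, beside 59.4% of all genes. The median percentile was 72.1. Xbp1, a factor of secretory cells, read 3287, Hnf4a, the central factor of hepatocyte identity, 2981, the hepatic lipid regulator Creb3l3 2385 and Cebpa 2244. The bile acid receptor Nr1h4 read 941, Foxa3 734 and Foxa2 571. Ppara, the receptor that drives fatty acid oxidation, read 52.1 on 430A, below the floor, and 2146 on 430B, within the top 10% there. For Ppara the reading thus depended on the probe set.

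Genes of the growth hormone axis covered the whole signal range, with the effector Igf1 and the receptor Ghr in the top 10%. Of 18 members on 430A, 5 were in the top 10%. The binding protein Igfbp4 read 12681, the growth hormone receptor Ghr 5260.0, Igfbp1 4584 and Igf1, the growth factor that the liver sends to the circulation, 4104. Igf1 also read 21524 at rank 5 on 430B. Among the feedback inhibitors, Cish read 363, Socs2 115, Socs3 93.9 and Socs1 39.2, and Socs2 read 581 on 430B, above the floor there. The receptor gene Igf1r read 57.3 on 430A, below the floor, and 616 on 430B, above it. Igf2, the fetal growth factor, read 47.2.

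Pulsatile growth hormone in males sets a sexually dimorphic programme in rodent liver, and the 2 lists of this programme lay far apart. Of 22 male-biased genes, 14 were in the top 10% and 20 above the floor, with a median percentile of 96.3. They were led by Gstp1, the glucocorticoid-activating Hsd11b1 at 7524, the peroxisomal hydrolase Nudt7 at 6773 and the steroid-conjugating Ugt2b1 at 5421. The male steroid dehydrogenase Hsd3b5 read 2493 and the male P450 Cyp2d9 4820.4. The urinary protein gene Mup3 was read by a pair of _x_at probe sets, at 4731 and 2.2, so its level was not settled. Of 32 female-biased genes, 3 were in the top 10% and 15 above the floor, beside 59.4% of all genes. Their median percentile was 38.7. The brightest were the fatty acid hydroxylase Cyp4a14 at 1947, the cytokine receptor Lifr at 1755, the oxidase Fmo1 at 1622.5 and Rtn4 at 872. The female P450 Cyp2b9 read 483. Other defining female genes were below the floor: Cyp2b13 read 50.1, Sult3a1 20.4, Cux2 3.9, Sult1e1 2.9 and Cyp3a16 1.7. Cux2 read 263 on 430B, above the floor there. Xist, the RNA of the inactive X chromosome, read 81.0, 11.7 and 6.0 through its 3 probe sets, all below the floor, in mice labelled as males. The Y-linked genes Eif2s3y, Uty and Kdm5d, named after their values were seen, read 192, 118 and 79.4. Kdm5d was thus below the floor, near the highest Xist reading. On 430B, Eif2s3y read 74.8 and Uty 61.4 and 19.6, all below the floor there.

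**Figure D4:**
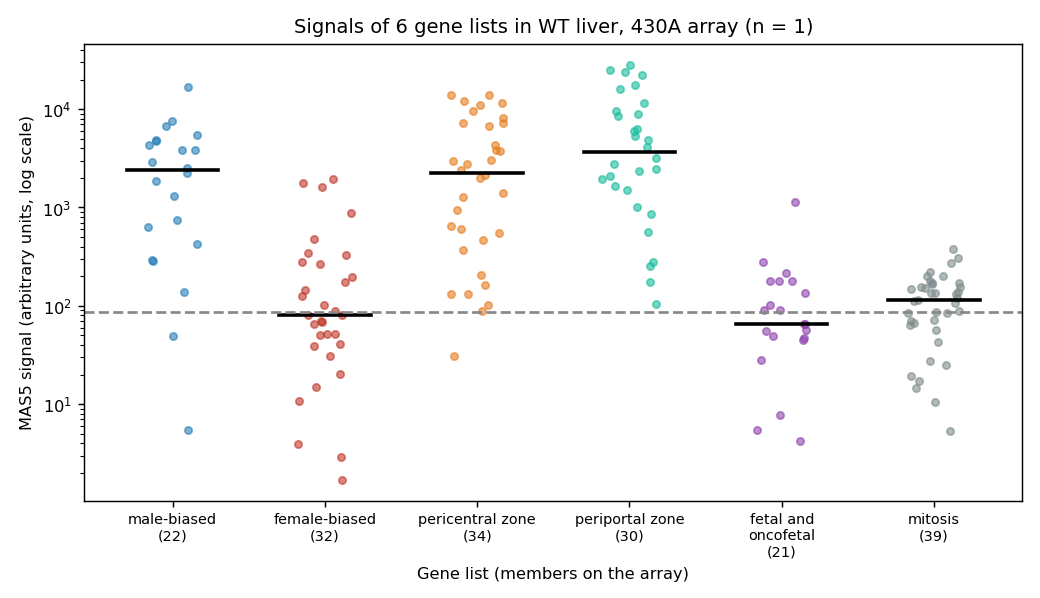
Signal on the WT 430A array (arbitrary units, log scale) of the members of 6 gene lists, with each list's median as a black bar and the floor of 86.8 as a dashed line. Male-biased genes have a median of 2378 and female-biased genes one of 81, and the periportal and pericentral medians are 3643 and 2265.

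Genes of both ends of the liver lobule were bright. Of 30 periportal genes, 24 were in the top 10% and all were above the floor, with a median percentile of 97.7. They included Alb, Serpina1c, Fgb, Hpx and Cps1, values of which are given above. Of 34 pericentral genes, 22 were in the top 10% and 33 above the floor, with a median percentile of 96.1. After Cyp2e1 and Cyp3a11 came Gstm1 and the P450 Cyp2c29 at 11658. Glul, the glutamine synthetase confined to the last hepatocytes before the central vein, read 2000.2 and 1971 through its 2 probe sets. Among targets of Wnt signalling in that rim, Axin2 read 133, Tbx3 131 and Lgr5 87.5, just above the floor. On 430B, Tbx3 read 34.9, below the floor, and Lgr5 197, above it. Whole-liver RNA does not separate the zones.

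Genes of cell division were scarce in the top 10%, and their shares above the floor were near or below that of all genes. Of 39 mitotic genes, 23 were above the floor, a share close to that of all genes (59.4%), none was in the top 10%, and the median percentile was 48.2. The highest was Cdc20, which activates the anaphase-promoting complex, at 376, then the mitotic kinase Cdk1 at 303, the securin Pttg1 at 274 and the cyclin Ccna2 at 220.1. The proliferation marker Mki67 read 199. Below the floor were the kinases Aurkb at 25.0, Bub1 at 19.4 and Bub1b at 14.5, and the motor Cenpe at 10.4. On 430B, Cenpe read 277 and Cdca8, a subunit of the chromosomal passenger complex, 1179 within the top 10%. Other probe sets of Cdca8 read 279.5 and 149.2 there. On that array 8 of 14 mitotic genes were above the floor, beside 62.5% of all genes. Of 31 DNA replication genes, 17 were above the floor on 430A, beside 59.4% of all genes. On 430B it was 6 of 14, beside 62.5%. Pcna, the polymerase clamp that also serves repair, was the member in the top 10% on 430A, at 969. Mcm10 read 806 through its brightest probe set and 54.5 through another, with 15.9 on 430B. Mcm7 read 733 and the thymidine kinase Tk1 481.5, while the licensing factor Cdc6 read 4.3 and Ccne2 32.5. The cell cycle inhibitor Cdkn1a, a target of p53, read 215 through its brightest probe set and 59.1, below the floor, through another.

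Genes of the fetal liver were mostly at or below the floor. Of 21 members, 10 were above it, a smaller share than the 59.4% of all genes, and the glycolytic Aldoa was the member in the top 10%, at 1132. Aldoc read 281.5, Pkm 217 and Peg3, an imprinted gene, 178. Afp was at 65.7 as given above, and its 5 probe sets all stood at or below this value. The fetal growth regulators Dlk1 and Igf2 read 45.3 and 47.2. The RNA-binding protein Igf2bp1 read 5.5, while Igf2bp3 read 177.9, above the floor. On 430B, 5 of 11 members were above the floor, beside 62.5% of all genes there. Aldoa at 2501 and Epcam at 1167 were in the top 10% of that array. Igf2bp3 read 767 there and Igf2bp1 155, just above the floor, while Peg3 read 16.9, below it. Gpc3, an oncofetal surface proteoglycan, read 91.5, just above the floor.

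Kupffer cell and macrophage markers were the brightest of the lists for other cell types. Of 22 markers, 5 were in the top 10% and 21 above the floor, with a median percentile of 86.3. With the median of a gene's probe sets in place of its brightest, 12 were in the top 10%. The macrophage lipid-binding protein Cd5l read 4408, the growth factor receptor Csf1r 2588.5, the Kupffer cell lectin Clec4f 2144 and the protease Ctss 1158. Spi1, the myeloid factor, read 77.8, below the floor. Timd4, a receptor of resident macrophages, read 1238 on 430B. In whole tissue, fewer cells of a type and less RNA per cell cannot be told apart, so these signals give no cell numbers.

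Sinusoidal endothelial cells and stellate cells gave intermediate signals. Of 24 endothelial markers, 21 were above the floor, beside 59.4% of all genes. The 1 in the top 10% was the sinusoidal lectin Clec4g at 1668. Ehd3 read 867, the nuclease Dnase1l3 704 and the hyaluronan scavenger Stab2 571. Vwf, which marks larger vessels, was below the floor at 26.9. Of 22 markers of stellate cells and fibroblasts, 18 were above the floor and 4 in the top 10%: the matrix proteins Sparc at 3769.8, Col3a1 at 1875, Dcn at 1749 and Bgn at 1216. On 430B, 4 of 10 were above the floor, beside 62.5% of all genes, and none was in the top 10%. Sparc read 277 there, above the floor, and Dcn 107, below it. The retinol-storing enzyme Lrat, a defining stellate gene, read 17.4 on 430A and 854 on 430B. Its probe sets thus placed it below the floor on 1 design and above it on the other. Pdgfrb read 77.1 and Hand2 2.5, both below the floor.

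Markers of bile ducts and lymphocytes were absent from the top 10% on 430A. Of 14 bile duct markers, 4 were above the floor, beside 59.4% of all genes: Slc4a2 at 271, Tspan8 at 185, Cd24a at 89.6 and Prom1 at 88.4. The duct keratins Krt7 and Krt19 read 44.5 and 8.4, Epcam 7.8 and Sox9 55.5. On 430B, 4 of 6 duct markers were above the floor, beside 62.5% of all genes. Epcam read 1167 there, within the top 10%, Onecut2 775.5, Sctr 266 and Sox9 14.9. Of 18 T and NK cell markers, 6 were above the floor, a smaller share than that of all genes. They were led by Zap70 at 413, with 47.4 through another probe set. The T cell receptor chains Cd3e and Cd3d read 28.8 and 4.4. Of 11 B cell markers, 6 were above the floor, a share near that of all genes, led by Ighm at 455, while Cd79b read 14.7. On 430B, Mzb1 read 710.5 and Pax5 552, against 22.8 for Pax5 on 430A. Of 13 neutrophil markers, 6 were above the floor, beside 59.4% of all genes. Lcn2, which hepatocytes also make, led these at 749, and S100a8 and Camp read 35.6 and 11.6.

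Red cell genes showed how a probe set decides a reading. Of 14 erythroid markers, 4 were above the floor, beside 59.4% of all genes. The 2 in the top 10% were the haem synthesis enzyme Alas2 at 1742 and the transferrin receptor Tfrc at 1267. Probe sets naming 1 globin gene were dim, with Hbb-b2 at 104 and Hba-a2 at 72.5. The 3 probe sets annotated to both alpha globin genes at once read between 4057 and 10096, and the 1 annotated to several beta globins read 8908. Signals annotated to several globins were bright, and those annotated to 1 globin lay near the floor. Beside them the red cell membrane genes Slc4a1 and Epb42 read 56.2 and 10.9, below the floor.

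Markers of neighbouring and distant tissues stood mostly below the floor, at or below which 40.6% of all genes lay. Of 16 pancreatic markers, 4 were above it and Cela1, an elastase, was the member in the top 10% at 1154, while the carboxypeptidases Cpa1 and Cpb1 read 2.4 and 7.7. Of 11 adipose markers, 4 were above it: the lipoprotein lipase Lpl at 2767, Fabp4 at 349.5, Lipe at 133 and Retn at 97.7, with Adipoq at 18.3 and Ucp1 at 4.1. Of 16 kidney and gut markers, 4 were above it, led by the gut fatty acid carrier Fabp2 at 1242, while the kidney genes Umod and Slc12a3 read 5.9 and 15.1. Of 19 muscle markers, Des, which stellate cells also use, was the member above it, at 111. Of 43 genes of brain, eye, testis and sensory organs, 35 were at or below the floor and the highest, Pomc, read 151.

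State-dependent genes were mixed. Of 30 genes of protein folding and the unfolded protein response, 17 were in the top 10%, led by the endoplasmic reticulum proteins P4hb at 10305, Hspa5 at 9751 and Calr at 7867, and by the mitochondrial chaperonin Hspd1 at 6390.4. In all, 28 were above the floor, beside 59.4% of all genes on the array. The remaining members spread widely, with Atf4 at 1596, Herpud1 at 765 and Ddit3 at 143. Trib3 at 65.9 and the heat shock gene Hspa1a at 21.7 were the members below the floor. Of 27 interferon response genes, 4 were in the top 10% and 24 above the floor, led by the GTPases Iigp1 at 5274 and Igtp at 1997, then Bst2 at 1418 and the immunoproteasome subunit Psmb8 at 1019. Of 27 immediate early genes, which respond within minutes to handling or growth factors, none was in the top 10%. Above the floor were 15 of the 27, a share near the 59.4% of all genes. Jund read 733, Zfp36 716, Dusp1 434 and Btg2 349, and Fos, Junb and Myc were below the floor at 24.4, 31.5 and 42.5.

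Of 20 circadian clock genes, 10 were above the floor, beside 59.4% of all genes, and none was in the top 10%. Rora read 757, Tef 518, Bhlhe40 439.5 and the kinase gene Csnk1d 424. The activator Arntl read 329 and Hlf 288, while Dbp, Nr1d1 and Per1 read 53.4, 35.6 and 5.6, all below the floor. Per3 and Per2 read 65.7 and 59.5 on 430A, below the floor, and 629.5 and 296.5 on 430B, above it. No clock phase was read from these signals. No source used here gives the time of day of collection.

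Genes used by every cell were bright as well. Of 62 oxidative phosphorylation genes, 53 were in the top 10%, led by Uqcrb at 12879, Cox6b1 at 7716, Atp5b at 6709.5 and Atp5a1 at 6699. Of 31 proteasome genes, 23 were in the top 10% and all were above the floor, led by Psmb7 at 4809.7. Of 42 ribosomal protein genes with a probe set of their own, 29 were in the top 10%, led by Rpl4 at 8819, while 5 stood at or below the floor, among them Rpl14 at 40.2 and Rpl41 at 49.1. Every cell needs these proteins, so their low readings show signals at the floor for genes that are in use. Actb read 3815 at rank 274, and 1 probe set annotated to Gapdh together with pseudogenes read 17704. The elongation factor Eef1a1 read 18491 at rank 16 and Tpt1 17155 at rank 22. On the control probe sets, the 3′ end of Gapdh read 5.81 times its 5′ end on 430A and 6.04 times on 430B, and for Actb the ratios were 2.57 and 2.29.

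The 430B array extended the picture to 5800 genes without a single-gene probe set on 430A. Its brightest genes after Ttr, Sod1 and Ugt2b36 were the surface protein Ly6e at 21532 and Igf1 at 21524. Nudt7 read 19769.6, the ribonuclease Ang 19544, the splicing factor Sf1 18312 and Urah, which acts after urate oxidase, 17359.7. The neuritin gene Nrn1 read 17062, Agpat2 16699, Sult2a8 15913, the receptor-like Paqr9 15629.7, the chaperone Canx 13969 and Rpl22 13878. Of 94 genes of hepatocyte lists on 430B, 37 were in its top 10%, a class that again holds 10% of all genes.

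A set of 100 probe sets present on both designs measured how well the 2 WT arrays repeated one another. Of these, 98 were above the floor on both. Their signals were higher on 430B by a median of 4.57 times, or 2.19 on the log2 scale. The log2 difference had an SD of 0.29 over the 100 probe sets, which is 0.20 per array, or 1.15-fold. The ratio ranged from 2.07 to 10.1 and lay within 1.5 times of its median for 95 of 100. Across these probe sets, which bear the same name on both designs, the log2 signals had a Pearson correlation of 0.97 (n = 100). An intensity on 430B was therefore not set against one on 430A.

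Different probe sets of the same gene repeated one another far less well. For 3713 genes read on both designs by different probe sets, the percentiles had a Pearson correlation of 0.118. The Spearman correlation of signals was 0.116 for these genes and 0.96 for the 100 shared probe sets. Genes at the floor were kept among the 3713, whereas 98 of the shared probe sets were above both floors. Of these genes, 249 were in the top 10% on 430A, 358 on 430B and 55 on both, which is 22.1% and 15.4% of each. In 104 genes the 430B signal was in the top 10% and the 430A signal at or below the floor. Kynu, an enzyme of tryptophan breakdown, read 40.2 and 8354, and the oxygen-sensing factor Epas1 25.8 and 4836. The oestrogen receptor Esr1 read 10 and 2808. In 80 genes the reverse held, such as Cp with 13822 on 430A and 80.7 on 430B, and Hmgcs1 with 10075 and 26.3. Within a design, percentiles of probe sets of the same gene correlated at 0.356 over 12821 pairs on 430A and at 0.145 over 7745 pairs on 430B. Pairs of 1 gene are not independent.

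**Figure D5:**
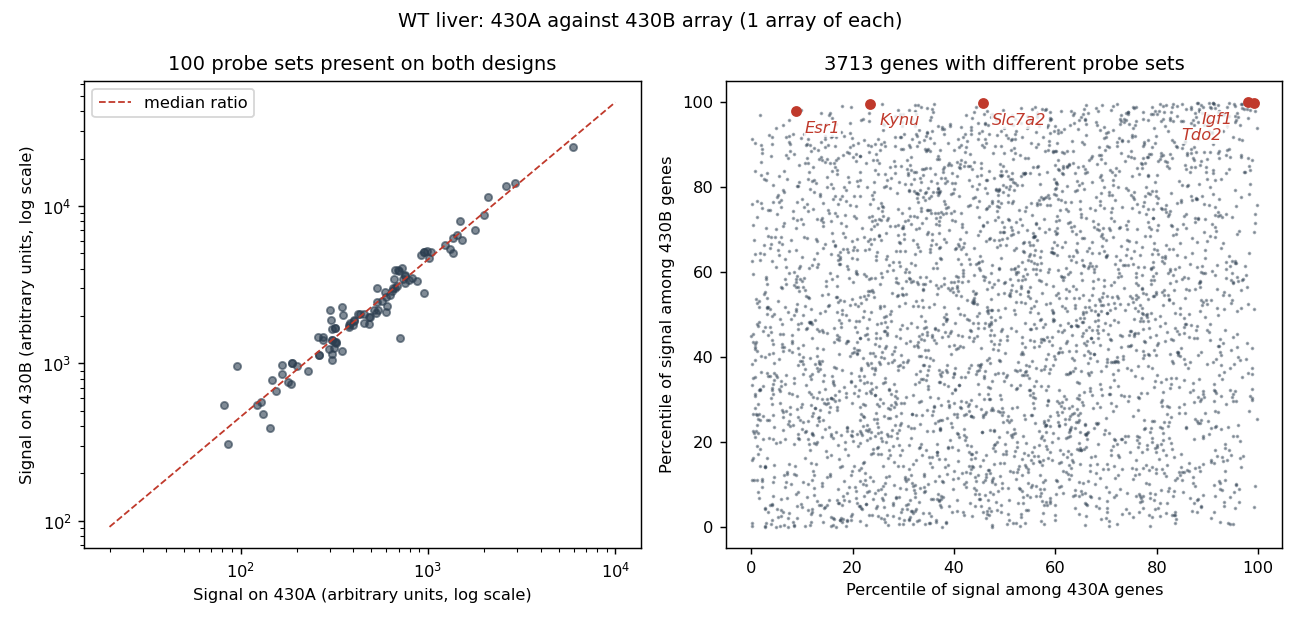
Left, signals of the 100 probe sets present on both designs (arbitrary units, log scales) with the median ratio of 4.57 as a dashed line. Right, percentile of signal on 430B against that on 430A for 3713 genes read by different probe sets (Pearson 0.118), with Kynu, Esr1, Slc7a2, Igf1 and Tdo2 in red.

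The same spread was seen among genes with more than 1 probe set on a design. Of 3346 such genes on 430A with a probe set above the floor, 2133 (63.7%) had another at or below it, and in 1223 the probe sets ranged over at least 10-fold. The brightest exceeded the next by a median of 2.73 times. Taken from this gap alone, the SD of a single probe set was 1.81 on the log2 scale, and 1.01 where both were above the floor. Dimmer probe sets of the same gene did not enter it. On 430B the SD was 1.77. A reading at the floor for a named gene thus describes the probe sets of that design and does not show that the transcript was missing.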

How the data were processed

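The values were signal intensities, 1 per probe set on a linear scale, that the authors deposited for each array. Per the submitters' processing notes MAS5 produced them, in a version not given in the sources used here. Intensities were used as deposited and only the WT columns were read. The 2% trimmed mean was 249.6 on 430A and 249.8 on 430B. Probe sets present on both designs nevertheless read higher on 430B, so intensities were ranked within a design only. RNA was extracted with RNA STAT-60, per the labels' protocols.

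Gene names came from the platform annotation, with symbols updated through gene identifiers against RefSeq (GRCm38.p6), where 20364 of 20393 single-gene probe sets matched on 430A and 14499 of 14674 on 430B. Probe sets with several symbols (691 and 245) or none (1606 and 7656) named no gene. Each gene took its brightest probe set on a design, and an _x_at probe set, which may hybridise to related genes, only where it had no other. Genes were ranked by signal within each design, and control probe sets were left out of the ranking.

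Of 1426 entries on 47 gene lists, 1201 had a probe set on 430A, 44 on 430B alone and 181 were not analysed here. The named genes were the 30 brightest on 430A and 15 brightest on 430B, the 4 brightest members of each list and symbol family, defining members of the lists for other cells, development, division and sex at or below the floor, and a set of reference genes. Other genes (the Y-linked genes, some promoter and probe set examples, and list members away from the bright end) were named after their values were seen. The members and lists were chosen with earlier results of these data known. No test was possible with 1 array of each design, so precision is limited by how few arrays there are. Alternatives tried were other probe set choices, thresholds and floors. Code was tested on simulated data and run in Python 3.11.15 with pandas 2.3.3, numpy 2.4.6 and scipy 1.17.1.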

Additional observations from a re-analysis of the deposited data

How the results depend on the processing

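No paired analysis was possible because each genotype had 1 array of each design and no comparison between groups was made. Of the 486 genes on hepatocyte lists, the 300 in the top 10% became 303 with the median of a gene's probe sets, 299 with the brightest probe set of any kind and 291 of 473 without _x_at and _s_at probe sets. At the top 5% and top 20% of genes they were 236 and 369. With both designs put on 1 scale, an alternative chosen after seeing the data, they were 352 of 506. The 443 above the floor ranged from 403 to 476 under the 3 other floors. The median percentile of these genes moved from 94.5 to 94.2 with the median of probe sets, and 26 of the 30 brightest genes stayed among the 30 brightest. Centring the shared probe sets on their median sets the log2 offset of 2.19 between the designs to 0 by construction. The SD taken from the gap between a gene's brightest and next probe set fell when both had to be above the floor. It went from 1.81 to 1.01 on 430A and from 1.77 to 1.01 on 430B, since pairs split by the floor leave the set. At the top 5% of genes, the proteasome list went from 23 to 6 members and oxidative phosphorylation from 53 to 35. With both designs on 1 scale, 11 Kupffer cell, 4 endothelial and 7 stellate markers were in the top 10%, and with the median of probe sets no endothelial or fetal liver gene was. When the floor was instead the 95th percentile over 70 probe sets of brain, eye, testis and sensory genes (signal 133), 2 bile duct, 1 T and NK cell and 3 neutrophil markers were above it. Signal near the floor limits every statement on dim genes.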

Other observations

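Of the 100 brightest genes of the WT 430A array, 21 stood on none of the gene lists, and the examples here were picked after their values were seen. Several belonged to antigen presentation: the class I heavy chain gene H2-K1 read 15260.1 at rank 33, the liver-secreted class I gene H2-Q10 read 12964 at rank 46, and their shared light chain B2m read 8823 at rank 83. Genes of selenium use were also among them. Selenop, the selenium carrier of plasma, read 19082 at rank 14, and Sephs2, which makes the selenium donor for selenoprotein synthesis, read 10493 at rank 63. ND5, a subunit of complex I coded by the mitochondrial genome, read 14843 at rank 34. The fatty acid transporter and ligase Slc27a2 read 10372 at rank 66, the phytanic acid hydroxylase Phyh 11551.5 at rank 58 and Serping1, the C1 inhibitor, 8827 at rank 82.

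Membrane transporter families were spread over the whole signal range of 430A, where 40.6% of all genes lay at or below the floor. Of 36 genes with an Abc symbol, 7 were in the top 10% and 11 at or below the floor, with Abcb11 at 6219 and the peroxisomal Abcd3 at 5425.5 in front. Of 18 Slc22 genes, carriers of organic ions, 2 were in the top 10% and 12 at or below the floor. Of 11 Slco genes, 3 were in the top 10%, led by the hepatic uptake carrier Slco1b2 at 4376.5, and 7 at or below the floor. Of 33 Slc25 genes, the mitochondrial carriers, 9 were in the top 10% and 7 at or below the floor, led by the phosphate carrier Slc25a3 at 7455 and the adenine nucleotide carrier Slc25a5 at 5656. Of the other families, 14 of 15 genes with an Apo symbol and 10 of 17 with an Hsd symbol were in the top 10%, a class that holds 10% of all genes. Hsd11b1 led the latter family at 7524. Some of the brightest probe sets could not be read as a gene: of the 100 brightest probe sets, 7 on 430A and 10 on 430B had no gene symbol, and 11 and 9 had several. The brightest of these on 430B read 120569.8 and was the brightest probe set of that array.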
